A study of Mus musculus with 8 samples.

Results

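The 10 genes followed here mark the thymus and were measured in atherosclerotic arteries of the mouse, with 7 genes of immature T cells (Rag1, Rag2, Dntt, Ptcra, Arpp21, Themis and Cd8b1) and 3 genes of thymic epithelium (Foxn1, Psmb11 and Prss16). They were taken by symbol from a table of 24391 genes, and all 10 were found there. They were chosen by their symbols after the spread of their counts over these same libraries was known, and the counts are thus what selected them; their spread over the libraries and their difference between the groups are given as a description, with no test. Each of the 8 libraries came from the lesion of 1 mouse: 4 mice had been given an antibody against IL-1β (IL1_AB) and 4 had been given immunoglobulin G as a control (IgG). All 8 animals were C57BL/6 and ate a Western diet for 18 weeks. The design text calls them wild type for smooth muscle cell lineage tracing and gives no further allele. The labels describe each sample as a mixture of cell types, with no sorting, and the extract protocol gives the tissue as BCA, the brachiocephalic artery that leaves the aortic arch.

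T cells are made in the thymus, which in mice lies in the front of the chest over the base of the heart and its great vessels. Precursors from the bone marrow cut and rejoin their receptor genes there with the RAG1 and RAG2 recombinase, while terminal transferase, the product of Dntt, adds bases at the joints. Cells that carry both CD4 and CD8 make up most of the organ, and RAG and terminal transferase are switched off as T cells mature. The epithelial network that selects these cells depends on the transcription factor FOXN1, and its cortical part makes the proteasome subunit encoded by Psmb11 and the serine protease encoded by Prss16. RAG and terminal transferase are also used by developing B cells in bone marrow, and Themis and Cd8b1 remain on in mature T cells.

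Promoter windows are shown for 3 members: Rag1, which varied most between libraries, Ptcra, which was barely detected, and the epithelial gene Psmb11. RefSeq sequences on GRCm38.p6, from 250 bases before to 50 bases after the start, were at hand for 8 of the 10 members, and 6 had a single window. Capitals mark the motifs searched on both strands: CAGCTG and CACCTG, E-box forms bound by E proteins, TGTGGT, bound by RUNX factors, CTTTGA, bound by TCF and LEF factors, and GACGC, the core bound by FOXN1. In the Psmb11 window an E-box form and a FOXN1 core adjoin, so their capitals form 1 run.
Rag1 (chr2:101649483-101649782, minus strand): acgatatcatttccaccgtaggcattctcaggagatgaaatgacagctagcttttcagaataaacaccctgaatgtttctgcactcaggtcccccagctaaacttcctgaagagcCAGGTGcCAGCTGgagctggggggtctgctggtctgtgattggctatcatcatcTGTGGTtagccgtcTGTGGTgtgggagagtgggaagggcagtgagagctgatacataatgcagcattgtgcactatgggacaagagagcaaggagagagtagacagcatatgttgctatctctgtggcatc
Ptcra (chr17:46763663-46763962, minus strand): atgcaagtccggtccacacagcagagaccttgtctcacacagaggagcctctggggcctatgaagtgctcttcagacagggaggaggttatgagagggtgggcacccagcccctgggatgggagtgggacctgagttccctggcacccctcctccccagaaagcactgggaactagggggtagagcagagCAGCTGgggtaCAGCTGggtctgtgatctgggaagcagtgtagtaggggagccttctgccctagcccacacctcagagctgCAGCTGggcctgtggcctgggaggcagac
Psmb11 (chr14:54625060-54625359, plus strand): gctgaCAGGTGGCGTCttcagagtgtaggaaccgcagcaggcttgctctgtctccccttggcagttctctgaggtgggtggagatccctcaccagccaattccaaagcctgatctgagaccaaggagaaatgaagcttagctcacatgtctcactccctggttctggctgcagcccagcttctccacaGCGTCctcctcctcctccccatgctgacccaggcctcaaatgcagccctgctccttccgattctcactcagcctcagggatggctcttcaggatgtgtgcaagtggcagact
The Rag1 window held 2 RUNX motifs and 1 each of the E-box forms, the Ptcra window 3 copies of CAGCTG, and the Psmb11 window 2 FOXN1 cores and 1 CACCTG. Of 32851 windows of the same length, 16.3% held CAGCTG, 20.2% CACCTG, 16.8% TGTGGT, 16% CTTTGA and 27.2% GACGC. The Foxn1 window held 1 of each E-box form, and those of Rag2 and Dntt held none of the letters searched. A match is a stretch of letters, not a measured site.

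Counts assigned to genes ran from 20137336 to 27100415 in antibody libraries and from 21902802 to 29453014 in IgG libraries. Levels below are in CPM, with library sizes after TMM (trimmed mean of M values) scaling, and 3 counts, taken as the floor of detection, equal 0.101 to 0.146 CPM. Vascular and macrophage genes were abundant in every library. The 4 smooth muscle genes listed (Acta2, Myh11, Tagln and Cnn1) summed to 1102 to 3483 CPM in antibody libraries and 1656 to 2476 CPM in IgG libraries, and the 5 macrophage genes to 3723 to 5645 CPM in antibody libraries and 3165 to 8861 CPM in IgG libraries. Against these, the 7 immature T cell genes together summed to 18.9, 77.9, 5.12 and 7.81 CPM in antibody animals 1 to 4, and to 99.6, 8.35, 2.52 and 4.83 CPM in IgG animals 1 to 4. The libraries of antibody animal 2 and IgG animal 1 thus stood above the other 6, with antibody animal 1 next. Fewer cells of a type and less RNA per cell cannot be told apart in bulk tissue.

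Rag1, which encodes the subunit that cuts DNA, lies on chromosome 2 of mm9 (101478411 to 101489689). It had 7.61, 38.8, 1.66 and 2.51 CPM in antibody animals 1 to 4, against 46.3, 0.922, 0.0721 and 0.135 CPM in IgG animals 1 to 4. All 4 antibody values lay above 3 of the 4 IgG values and below that of IgG animal 1, which was the highest of all. In counts the range was 1354 in IgG animal 1 to 2 in IgG animal 3. Among the 15980 genes kept by the filter on low counts, Rag1 had the largest SD of log2 CPM over the 8 libraries (3.10), Arpp21 the next (2.96) and Dntt the third. These ranks describe the spread for which the genes were picked.

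Rag2, its obligate partner, lies beside it on the opposite strand (101464905 to 101472685) with no shared bases. It was 1 of 5 members that did not pass the filter on low counts. Its values were 0.390, 1.54, 0.175 and 0.283 CPM in antibody animals 1 to 4, against 2.05, 0.0922, 0.0721 and 0.236 CPM in IgG animals 1 to 4. The same 2 libraries were highest, from 44 and 60 counts. Per kilobase of exon, Rag2 was far below Rag1: 0.455 against 5.82 RPKM in antibody animal 2, and 0.605 against 6.95 RPKM in IgG animal 1.

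Dntt (chromosome 19, 41103765 to 41134015) and Arpp21 (chromosome 9, 111967595 to 112137345) were highest in the same libraries as Rag1. Dntt had 2.29, 7.82, 0.263 and 0.405 CPM in antibody animals 1 to 4, and 11.8, 0.184, 0 and 0.169 CPM in IgG animals 1 to 4. Arpp21, which encodes a cAMP-regulated phosphoprotein made in immature thymocytes and in neurons, had 3.42, 13.1, 0.656 and 0.971 CPM in antibody animals, and 17.1, 0.646, 0 and 0 CPM in IgG animals. For both genes antibody animal 2 and IgG animal 1 were the highest, antibody animal 1 was the third, and IgG animal 3 had no count. The ratio of Rag1 to Arpp21 counts was 2.23, 2.95, 2.53 and 2.58 in antibody animals 1 to 4, against 2.71 in IgG animal 1 and 1.43 in IgG animal 2. The last rests on 20 and 14 counts, and IgG animals 3 and 4 had no Arpp21 count. The ratio of Rag1 to Dntt counts was 3.32, 4.97, 6.33 and 6.20 in antibody animals 1 to 4, and 3.92 in IgG animal 1. It was 5 in IgG animal 2 and 0.8 in IgG animal 4, from 4 and 5 Dntt counts, and could not be formed in IgG animal 3, which had 2 Rag1 counts and no Dntt count.

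**Figure D1:**
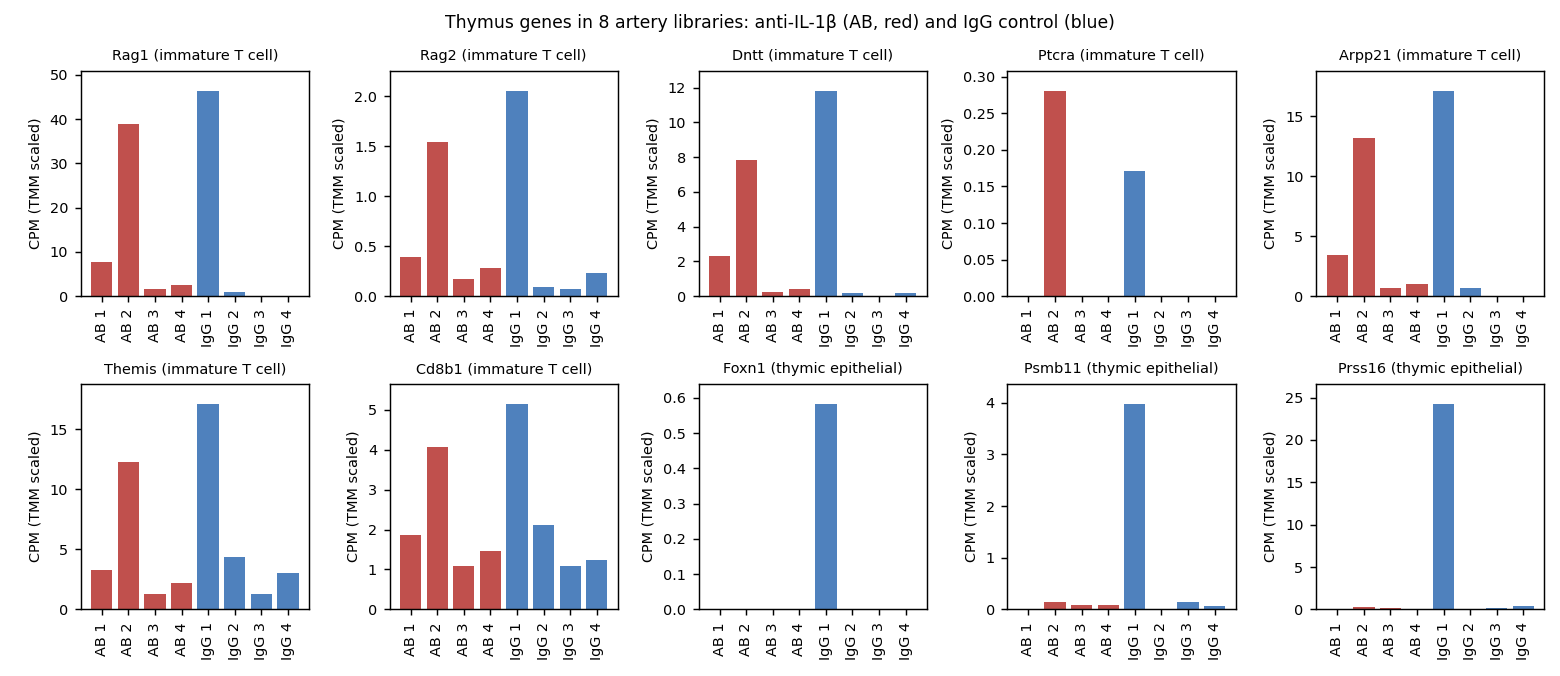
CPM (TMM scaled, linear axes from 0, a separate scale per gene) of the 10 members in 4 antibody (red, left) and 4 IgG (blue, right) libraries, 1 bar per animal. Rag1, Rag2, Dntt and Arpp21 are high in antibody animal 2 and IgG animal 1, while Foxn1, Psmb11 and Prss16 are high in IgG animal 1.

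Themis and Cd8b1 had a level in every library on top of that pattern. Themis (chromosome 10, 28388166 to 28603624), a signalling adaptor needed for positive selection of thymocytes, had 3.32, 12.3, 1.27 and 2.19 CPM in antibody animals 1 to 4, and 17.1, 4.38, 1.30 and 3.04 CPM in IgG animals 1 to 4. Cd8b1 (chromosome 6, 71272806 to 71287445), the beta chain of the CD8 co-receptor, had 1.85, 4.07, 1.09 and 1.46 CPM in antibody animals, and 5.13, 2.12, 1.08 and 1.25 CPM in IgG animals. Neither fell under 25 counts in any library. The ratio of Rag1 to Themis counts was 2.29, 3.17, 1.31 and 1.15 in antibody animals 1 to 4, and 2.71, 0.211, 0.0556 and 0.0444 in IgG animals 1 to 4. IgG animals 2 to 4 thus had Themis transcripts with little Rag1, and antibody animals 3 and 4 lay between them and the 3 libraries rich in Rag1.

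Ptcra (chromosome 17, 46892612 to 46900661), whose product pairs with the newly made T cell receptor beta chain, was nearly undetected. It had 8 counts in antibody animal 2, 5 counts in IgG animal 1 and 0 in the other 6 libraries. Per kilobase of exon this was 0.219 RPKM in antibody animal 2 and 0.133 RPKM in IgG animal 1, against 3.67 and 5.54 RPKM for Dntt in the same libraries. At this depth its level in the other 6 libraries could not be measured below the floor of 3 counts.

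The thymic epithelial genes had more than 12 counts in 1 library, that of IgG animal 1. Prss16 (chromosome 13, 22094045 to 22101610) had 0, 8, 4 and 2 counts in antibody animals 1 to 4, against 707, 0, 4 and 12 counts in IgG animals 1 to 4. Psmb11 (chromosome 14, 55244147 to 55248393) had 0, 4, 2 and 2 counts in antibody animals, and 116, 0, 4 and 2 counts in IgG animals. Foxn1 (chromosome 11, 78171079 to 78200110) had 17 counts in IgG animal 1 and 0 in the other 7 libraries, which allows up to 0.101 to 0.146 CPM there. The 3 genes summed to 0, 0.421, 0.263 and 0.162 CPM in antibody animals 1 to 4, and to 28.7, 0, 0.288 and 0.472 CPM in IgG animals 1 to 4. Of the epithelial genes, Prss16 passed the floor of 3 counts in 5 libraries, Psmb11 in 3 and Foxn1 in 1, so outside IgG animal 1 the name thymus tissue has at most 12 counts of any epithelial gene behind it.

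Antibody animal 2 and IgG animal 1 were close in immature T cell genes and far apart in epithelial genes. The summed immature T cell level of antibody animal 2 was 0.782 times that of IgG animal 1 (95% interval 0.740 to 0.827), with 0.838 for Rag1, 0.662 for Dntt, 0.770 for Arpp21, 0.719 for Themis and 0.792 for Cd8b1. The summed epithelial level of antibody animal 2 was 0.0146 times that of IgG animal 1 (95% interval 0.00753 to 0.0257), with 0.0116 for Prss16 and 0.0353 for Psmb11. Foxn1 was at 0 counts in antibody animal 2, which allows a ratio of up to 0.181 at the floor of 3 counts. Antibody animal 1 had 0.190 times the immature T cell level of IgG animal 1 (0.170 to 0.211) and no epithelial count. These exact intervals compare single libraries, cover counting error only, and are too narrow if both ends of a fragment were counted.

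**Figure D2:**
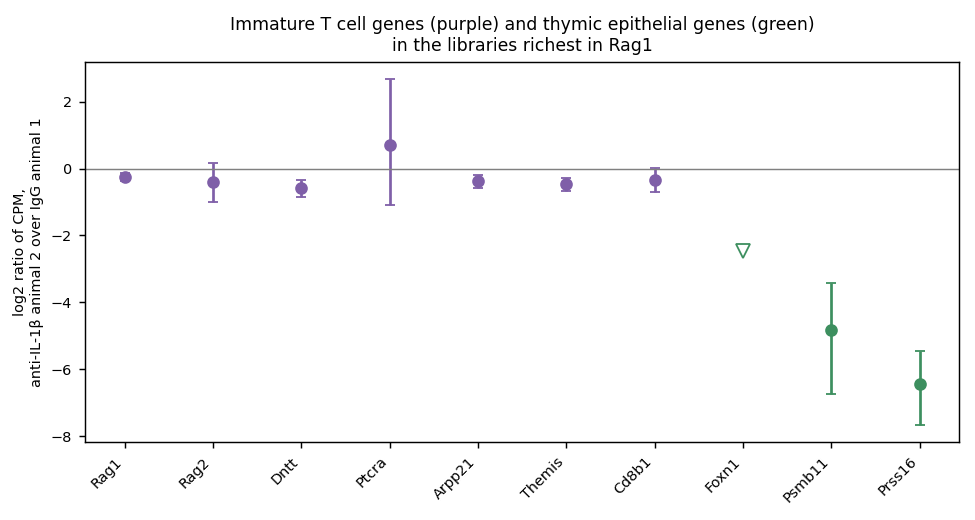
Log2 ratio of CPM in antibody animal 2 over IgG animal 1 for each member, with exact 95% counting intervals; the open triangle is the bound for Foxn1, which had 0 counts in antibody animal 2. The immature T cell genes (purple) lie near 0, with Ptcra from 13 counts in all, and the epithelial genes (green) lie far below.

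Set between antibody and IgG animals, the thymus genes gave values that hung on single animals. With edgeR's quasi-likelihood test 0 of 15980 genes (0%) passed a Benjamini-Hochberg adjusted p of 0.05, and 509 (3.19%) had an unadjusted p under 0.05. DESeq2 called 8 genes, none of them a member. Of the 5 members that passed the low-count filter, Themis and Cd8b1 had at least 25 counts in every library. Without both antibody animal 2 and IgG animal 1, 4 of the 5 still passed the filter and Dntt did not. The groups overlapped for all 10 members, and over all genes kept 1.96% had groups that did not overlap. The log2 fold changes of antibody over IgG were 0.10 ± 1.58 (SE) for Rag1, -0.17 ± 1.50 for Dntt, 0.04 ± 1.53 for Arpp21, -0.43 ± 0.85 for Themis and -0.17 ± 0.56 for Cd8b1. Their median was -0.17, against -0.0096 over all genes kept. Rag1 averaged 12.7 ± 17.6 CPM in antibody animals and 11.9 ± 23.0 CPM in IgG animals (SD, n = 4 each), so each SD exceeded its mean. The medians, which single high libraries move less, were 5.06 CPM in antibody animals and 0.529 CPM in IgG animals.

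The values moved most when 1 of the 2 libraries that stood apart was left out. Without IgG animal 1 the log2 fold change was 5.19 for Rag1, 4.57 for Arpp21, 0.73 for Themis and 0.54 for Cd8b1. Leaving out antibody animal 2 gave -1.62 for Rag1, -1.43 for Arpp21, -1.53 for Themis and -0.72 for Cd8b1. Rag1 was also below 0 without IgG animal 2 (-0.28), IgG animal 3 (-0.32) or IgG animal 4 (-0.32), as was Arpp21 (-0.31, -0.37 and -0.38). Dntt was 0.21 without antibody animal 3 and 0.19 without antibody animal 4, and Cd8b1 was 0.04 without antibody animal 3. Without antibody animal 2 or IgG animal 1, Dntt did not pass the filter. Without both libraries, a comparison added after the data were seen, Rag1 had 3.45 ± 0.93 and Arpp21 3.09 ± 1.23 (SE), while Themis had -0.36 ± 0.51 and Cd8b1 -0.01 ± 0.38. The IgG side of that fit rests on 20, 2 and 4 Rag1 counts and 14, 0 and 0 Arpp21 counts, mostly near or under the floor. Leaving out antibody animal 1 as well, also chosen after the data were seen, gave 2.56 for Rag1 and 2.07 for Arpp21. The summed immature T cell level, as log2(CPM + 0.1), was 3.98 ± 1.73 in antibody animals and 3.35 ± 2.30 in IgG animals (SD, n = 4 each), a difference of 0.62. That difference was 1.72 without IgG animal 1, -0.15 without antibody animal 2, -0.03 without IgG animal 3, 0.27 without IgG animal 4 and 0.95 without both antibody animal 2 and IgG animal 1. The summed epithelial level was -1.92 ± 1.02 in antibody animals and -0.16 ± 3.51 in IgG animals on the same scale, a difference of -1.75 that was -0.085 without IgG animal 1.

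**Figure D3:**
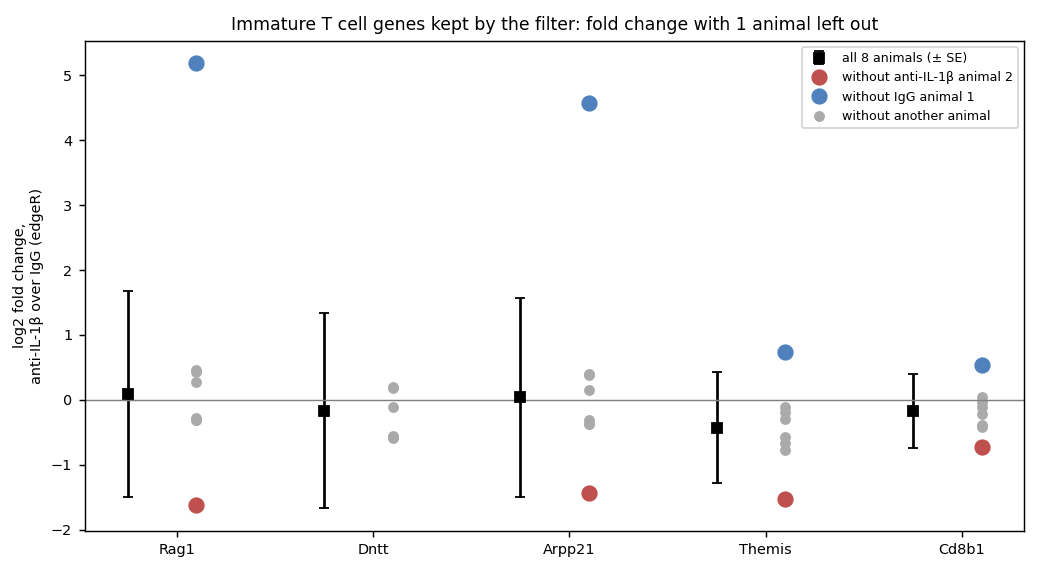
Log2 fold change of antibody over IgG (edgeR) for the 5 members kept by the low-count filter. Black squares with SE bars use all 8 animals, red points leave out antibody animal 2, blue points IgG animal 1 and grey points another animal. Rag1 ranges from -1.62 to 5.19.

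Most other thymocyte genes listed had the same 2 libraries on top. Of 12 genes listed, among them Cd4, Satb1, Bcl11b, Lef1 and Myb, all 12 were kept, and for 8 antibody animal 2 and IgG animal 1 were the 2 highest libraries, which held for 7.5% of all genes kept. Satb1, a chromatin organiser of thymocytes, had 21.2, 42.0, 16.7 and 12.8 CPM in antibody animals 1 to 4, and 53.1, 10.1, 10.5 and 13.9 CPM in IgG animals 1 to 4. Cd1d1 and Cd4 were among the 4 without that order, and both are also expressed by macrophages or other cells. Cd4 ran from 4.20 to 15.8 CPM in antibody animals and from 3.27 to 24.0 CPM in IgG animals, highest in IgG animal 3. None of the 12 passed the adjusted threshold with edgeR and none had an unadjusted p under 0.05 (over all genes 1.13% higher and 2.06% lower). Their median log2 fold change was 0.0073. Without both antibody animal 2 and IgG animal 1 it was 0.17, and 4 of the 12 had an unadjusted p under 0.05, as did 1282 of 15798 genes over the whole table in that fit.

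T cell genes of all stages differed less between libraries than the immature T cell members, which were picked for their spread. The 12 genes listed, among them Cd3e and Lck, summed to 30.1, 49.7, 22.3 and 27.1 CPM in antibody animals 1 to 4, and to 65.5, 41.9, 25.2 and 35.9 CPM in IgG animals 1 to 4. Antibody animal 2 and IgG animal 1 had 1.74 and 2.29 times the median of the other 6 libraries, against 12.1 and 15.4 times for the immature T cell genes. The summed other thymocyte genes had 1.50 and 1.74 times. That sum, 118 to 222 CPM per library, held 50.2 to 95.0 CPM of Cd1d1. Cd1d1 was lowest in the same 2 libraries (52.3 CPM in antibody animal 2 and 50.2 CPM in IgG animal 1), which lowers these ratios. For 5 of the 12 T cell genes of all stages the same 2 libraries were highest, against 7.5% of all genes kept. IgG animal 1 was highest for 10 of the 12, against 13.6% of all genes kept. Lck, the kinase that signals from CD4 and CD8, had 9.92 CPM in antibody animal 2 and 10.4 CPM in IgG animal 1, and 1.44 to 5.40 CPM in the other 6. Of these 12 genes 11 had log2 fold changes below 0 (median -0.47), also without both libraries (median -0.37). None of the 12 passed the adjusted threshold with edgeR. Cd3g had an unadjusted p under 0.05 in that test, lower with the antibody, as did 2.06% of all genes kept. Of 10 mature or activated T cell genes kept of 12, such as S1pr1, Klf2, Cxcr6 and Il2rb, none had antibody animal 2 and IgG animal 1 as its 2 highest libraries. S1pr1 and Klf2 are also abundant in endothelium.

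Some further epithelial genes were also highest in IgG animal 1. Of 15 other thymic epithelial genes, 8 were kept, and 5 of those 8 had their highest level in IgG animal 1, as did 13.6% of all genes kept. With the genes that did not pass the filter it was 9 of 15. Ccl25, the chemokine that draws precursors to the thymus, had 2.59, 2.38, 2.80 and 2.43 CPM in antibody animals 1 to 4, against 16.8, 2.77, 2.20 and 1.89 CPM in IgG animals 1 to 4. Dll4, Ly75 and Hoxa3, which had the highest mean levels of the list, were not highest in IgG animal 1. Dll4, the Notch ligand, ran from 17.4 to 27.9 CPM in antibody animals and from 16.0 to 33.4 CPM in IgG animals, and is also made by endothelium. Ly75 ran from 11.1 to 19.9 CPM in antibody animals and from 21.2 to 27.2 CPM in IgG animals, highest in IgG animal 4. Hoxa3 ran from 6.30 to 8.20 CPM in antibody animals and from 5.08 to 8.95 CPM in IgG animals, highest in IgG animal 2. Named after their values were seen, the basal keratin gene Krt5 had 209 counts in IgG animal 1 and at most 4 in any other library, and Aire, the regulator of self-antigens in medullary epithelium, had 43 and at most 4. In IgG animal 1 alone, 2 of the 15980 genes kept (0.0125%), Krt8 and Ccl25, had at least 4 times the level of every other library. Krt5, Aire, Prss16 and Psmb11 did not pass the low-count filter, so this share leaves them out. In the list 0 genes passed the adjusted threshold with edgeR. Krt8, Ly75 and Cldn3 had an unadjusted p under 0.05 in that test, all lower with the antibody. Over all genes kept 2.06% were lower at that cutoff. The secreted airway protein gene Scgb1a1 was also highest in IgG animal 1, with 0.263 to 1.66 CPM in antibody animals, against 14.1, 7.24, 0.865 and 3.24 CPM in IgG animals 1 to 4. The 3 airway and lung genes summed to 0.306 to 1.94 CPM in antibody animals and 1.12 to 14.4 CPM in IgG animals; Sftpc had 6 counts in IgG animal 1 and 2 in IgG animal 4. Their part in the keratin values was not tested.

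**Figure D4:**
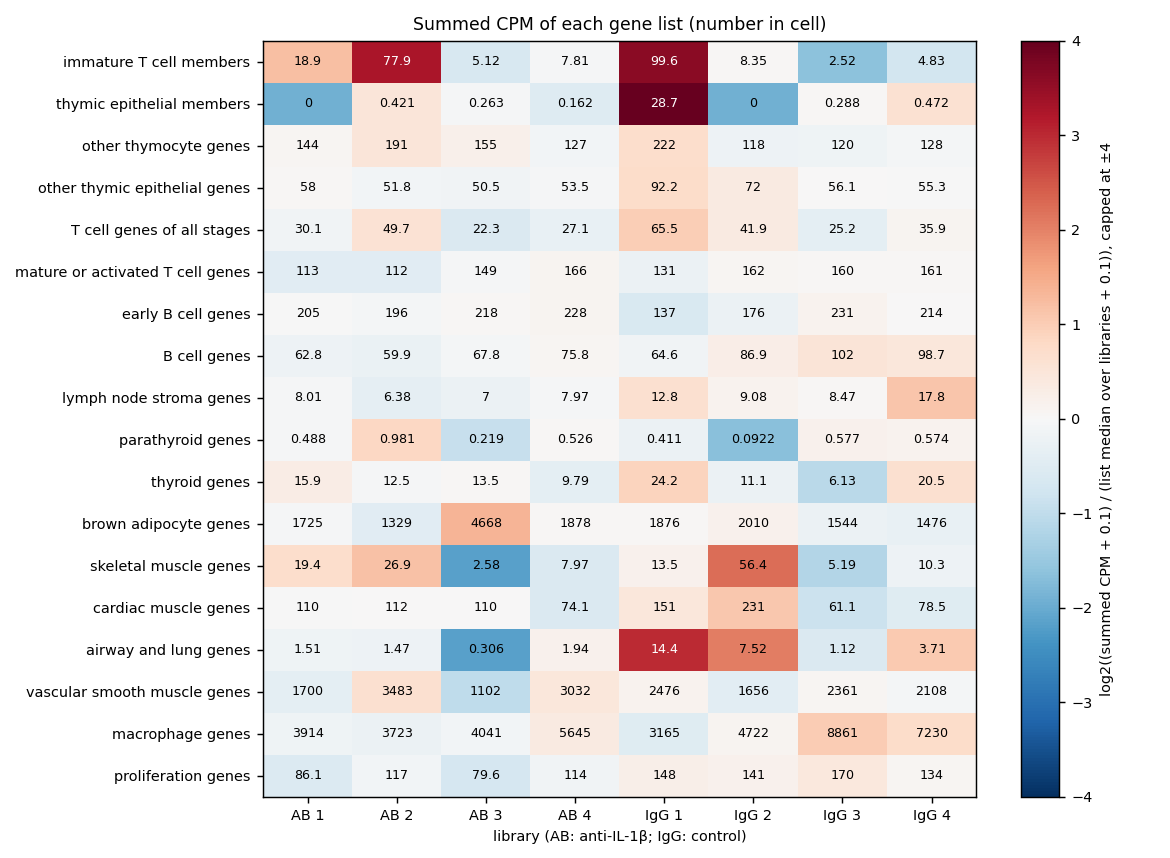
Summed CPM of each gene list (number in the cell) in 4 antibody (left) and 4 IgG (right) libraries; colour is log2 of the sum over the list's median library, each plus 0.1. The immature T cell row is highest in antibody animal 2 (77.9 CPM) and IgG animal 1 (99.6 CPM), and the epithelial row in IgG animal 1 (28.7 CPM).

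Early B cell genes did not accompany Rag1 and Dntt. Igll1 and Vpreb1, which encode the surrogate light chain of precursor B cells, had 1 and 0 counts in antibody animal 2, and 0 and 4 counts in IgG animal 1. Over all libraries Igll1 and Vpreb2 had at most 2 counts and Vpreb1 at most 4. The full list of 7 summed to 196 to 228 CPM in antibody animals and 137 to 231 CPM in IgG animals, nearly all from Ebf1 and Il7r, which other cells also express; 3 of 7 were kept and 0 passed the adjusted threshold with edgeR. The 8 proliferation genes summed to 79.6 to 117 CPM in antibody animals and 134 to 170 CPM in IgG animals. The sum was highest in IgG animal 3, which had the lowest immature T cell level. With edgeR 5 of the 8 had an unadjusted p under 0.05, all lower. Over all genes kept, 2.06% were lower and 1.13% higher at that cutoff, as background for this list and the next ones. Of the 6 B cell genes Cd79b and Ms4a1 had an unadjusted p under 0.05, and of the 5 lymph node stroma genes Cxcl13, all lower. Lower too were Csf1r of the 5 macrophage genes and Myh6, Myl7 and Nppa of the 4 cardiac muscle genes, whose sum was 74.1 to 112 CPM in antibody animals and 61.1 to 231 CPM in IgG animals. The cardiac values rest on IgG animal 2: Nppa had 0.635, 0.210, 0.963 and 2.27 CPM in antibody animals 1 to 4, and 0.684, 67.4, 0.144 and 0.472 CPM in IgG animals 1 to 4, and Myh6 and Myl7 were also highest in IgG animal 2 (59.6 and 10.1 CPM). Higher were Slc5a5 of the 5 thyroid genes and Cidea and Cox8b of the 5 brown adipocyte genes. Among 3 parathyroid, 4 skeletal muscle and 4 smooth muscle genes none had an unadjusted p under 0.05, and in no list did a gene pass the adjusted threshold with edgeR.

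Over the whole table, the genes with profiles most like that of the 5 kept immature T cell genes were ranked by the root mean square difference of centred log2 CPM over the 8 libraries. Myb, a transcription factor of blood precursors and thymocytes, had the smallest difference of 15975 genes (0.63), followed by Tdrd5 (0.66), Lef1 (0.82), Grhl2 (1.05), Lin28b (1.16), Bcl11b (1.16), Srrm4os (1.19) and Trpv6 (1.22), against a median of 1.98. Myb had 3.71, 9.22, 1.58 and 1.05 CPM in antibody animals 1 to 4, and 9.65, 0.830, 0.288 and 1.01 CPM in IgG animals 1 to 4. Lef1, a partner of Tcf7 in T cell commitment, had 3.65 CPM in antibody animal 2 and 5.13 CPM in IgG animal 1, and 0.405 to 1.37 CPM in the other 6. Srrm4os is an antisense transcript, whose reads cannot be told apart from those of its partner where counting ignores strand.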

How the data were processed

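RNA from 8 artery lesions was sequenced, and the authors deposited raw counts per gene symbol with a table of alignment status. Per the file headers, reads over exons were counted with featureCounts 1.4.6-p4 on the UCSC mm9 annotation, with no option shown for strand, read pairs or reads with several alignments. The submitters' processing notes also list STAR 3.0, CASAVA, DESeq2 and Subread, without saying what each did. Even numbers made up 67.6% of the counts from 1 to 20, so a fragment may have given 2 counts. The authors' exon length gave RPKM here. Genes were kept by edgeR's filterByExpr (minimum count 10, minimum total 15) and fitted with edgeR 4.0.16 (R 4.3.3), quasi-likelihood F-test, TMM scaling and no covariate; p-values were adjusted by Benjamini-Hochberg over 15980 genes. SEs came from the F statistic. log2 CPM used a prior count of 2. DESeq2 1.42.0, other scalings, no filter, a replicate block and leaving out each animal were alternatives. The fit was checked on simulated data. Libraries of a group differed beyond sampling noise (chi-square over its degrees of freedom at least 27.9), so within a group none was the same library sequenced again. Libraries of different groups were not compared in this way. The check cannot tell a second preparation of the same animal from another animal. The labels give no batch. Coordinates span first to last exon in mm9; promoter windows are on GRCm38.p6 and were not converted.

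The members and the 18 gene lists were chosen with earlier results of these data known. Named were all members, up to 4 kept genes of highest mean CPM per list, and the 8 genes of most similar profile. Krt5, Aire, Igll1, Vpreb1, Vpreb2, Sftpc and the genes named for an unadjusted p were named after their values were seen. Some list genes are not reported here by name.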

Additional observations from a re-analysis of the deposited data

Results flagged for a closer look

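Within groups of 4 animals, the highest library stood apart from the others in 13 of 23 sets of CPM values, by the gap to its neighbour divided by the range of the group. Chance alone puts about 1 in 20 groups past the limit used, but the members were chosen with their spread over these libraries known and the sets share the same libraries, so that rate is no yardstick here and the values are a description with no test. In the antibody group the library of animal 2 stood apart for Rag1 (0.84), Rag2 (0.842) and Ptcra (1, from 8 counts against 0 in the others). In the IgG group the library of animal 1 stood apart for Rag1 (0.982), Rag2 (0.917), Dntt (0.984), Ptcra (1, from 5 counts against 0), Arpp21 (0.962) and the summed immature T cell level (0.94). The same library stood apart for Foxn1 (1, from 17 counts against 0), Psmb11 (0.964), Prss16 (0.983) and the summed epithelial level (0.984). Themis and Cd8b1 were not among them in either group.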

How the results depend on the processing

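Scaling and pseudocount moved the summed differences by less than the SD between animals. The summed immature T cell difference ran from 0.53 to 0.65 and the epithelial one from -1.76 to -1.19 over total-count scaling, DESeq2 size factors and a pseudocount of 1. The count of genes past the adjusted threshold was 0, and 8 with DESeq2, none of them a member. With 1 animal left out it ranged from 0 to 1, with 1 gene without antibody animal 2 and 1 without IgG animal 1, and the summed differences ranged from -0.15 to 1.72 and from -2.81 to -0.085. In fits chosen after seeing the data the count was 1 without both antibody animal 2 and IgG animal 1, and 0 without antibody animals 1 and 2 and IgG animal 1, where the summed differences were 0.43 and 0.13. Over these settings and the block, Rag1 and Arpp21 moved most without IgG animal 1; the cause was not tested. With the replicate number as a block the count was 0, with 361 genes at an unadjusted p under 0.05 against 509. The log2 fold changes in that fit were 2.78 for Rag1, 2.38 for Arpp21 and 1.39 for Dntt. Same-numbered animals correlated at 0.29, -0.34, -0.13 and -0.0012. With so few animals these values cannot settle whether the numbers pair them. Levels at or under 3 counts are not resolved, which covers most Ptcra, Foxn1 and Psmb11 values.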

Other observations

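Over the whole table, 8 genes with at least 1 CPM in both antibody animal 2 and IgG animal 1 had there at least 4 times the highest value of the other libraries, antibody animal 1 left aside. They were Rag1, Rag2, Dntt, Arpp21, Myb, Lef1, Tdrd5 and Spo11, and antibody animal 1 lay between for all 8. Tdrd5 and Spo11 are best known from germ cells: Spo11, which encodes the enzyme that breaks DNA in meiosis, had 0.439, 1.61, 0 and 0.0405 CPM in antibody animals 1 to 4, and 2.19, 0.369, 0.180 and 0.202 CPM in IgG animals 1 to 4. Tdrd5 had 2.03 CPM in antibody animal 2 and 2.19 CPM in IgG animal 1, and 0.0721 to 0.683 CPM in the other 6.

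In IgG animal 1 alone, 15 of all 24391 genes had at least 1 CPM and at least 4 times the level of every other library. They included Prss16 and Psmb11 among the members, the keratin genes Krt5, Krt8, Krt14 and Krt17, and Fcgbp, which encodes a mucus protein and had 0 to 0.537 CPM in antibody animals, against 24.0 CPM in IgG animal 1 and 0 to 1.32 CPM in the other IgG animals. Slc46a2, a solute carrier gene, had 2.12 CPM in IgG animal 1 and no count elsewhere. Pth, the parathyroid hormone gene, had 14 counts in antibody animal 2 and none in any other library, while Gcm2, the parathyroid transcription factor gene, had 0 counts there and 2 in IgG animal 1. These genes were named after their values were seen and were not tested.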
